A study of Xenopus tropicalis with 8 samples.

Results

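Developmental transcription factors of 11 gene families were followed in testes of juvenile male frogs, Xenopus (Silurana) tropicalis. The families are the homeobox genes hox, lhx, nkx and irx, the sine oculis homeobox genes (six3 and six4 here), the paired box genes pax, the forkhead genes fox, and the sox, gata, tbx and dmrt genes. A gene was included when the transcript accession of a probe, read without its version, led to a RefSeq symbol of one of these families. This rule found 59 genes of 5617 named on the arrays, each read by 1 probe. The RefSeq table holds 170 symbols that match the rule, and the 111 others were not analysed here, 4 of which only share letters with a family name (tbxa2r, tbxas1, foxred1 and foxred2). The members counted 15 hox, 11 nkx, 10 fox, 5 pax, 5 tbx, 4 lhx, 4 sox and 2 sine oculis genes, and 1 gene each for dmrt, gata and irx.

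Testis tissue had been kept for 6 h at 26 °C in L-15 culture medium, either with 5 µM finasteride, a drug that inhibits steroid 5-alpha-reductase, or with none (0 µM). Each group was read on 4 single-colour (Cy3) Agilent arrays of total RNA, and the design text names 8 samples per arm. No strain or age in days is given, and the labels do not say whether an array holds 1 animal or a pool, so the p-values measure the spread between these samples only, which may be technical. The tissue was taken whole, so that fewer cells of a type and less RNA per cell cannot be told apart.

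Transcription factors of these families bind DNA through a family domain, such as the homeodomain, the forkhead or the HMG box, and set up body regions and cell types in the embryo. Hox genes lie in clusters, and their order along the chromosome follows the order of their expression domains along the body axis. In the vertebrate gonad, members of several families (among them sox8, lhx9, six4 and dmrt genes, from work in mice) take part in forming the gonad or in the later life of its germ cells and supporting cells.

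Array signal limited what could be read. Processed intensity had a 75th percentile of 719 to 1687 over the control arrays and of 896 to 1798 over the finasteride arrays, and no spot of a member was saturated. Levels below are log2 intensities minus that percentile of the array, so a level of 0 is the percentile itself, and levels of different probes are not compared. Few markers of the tissue had a named probe. The steroidogenic gene star stood for Leydig cells, with a control level of -0.31 ± 0.56 and a finasteride level of -0.64 ± 0.39 (SD, n = 4 each). The germ cell gene piwil1, a Piwi protein, stood at 0.16 ± 0.43 and 0.44 ± 0.45, and the tight junction gene cldn11 of Sertoli cells at -0.80 ± 0.33 and -0.70 ± 0.34. The other Sertoli marker tested of 10 listed, the keratin gene krt18.2, stood at -4.84 ± 0.33 and -4.14 ± 0.25 with groups that did not overlap, as for 2.08% of all tested probes. Of the 14 germ cell markers listed 2 were tested, piwil1 and dnah7. Dnah7 stood at 1.61 ± 0.31 and 1.39 ± 0.60 (SD, n = 4 each), a difference opposite in sign to that of piwil1. The summed signal of both was 3.30 to 5.69 on control and 2.72 to 5.80 on finasteride arrays. The meiotic gene sycp3 was well above background on no array. The probes of cldn11 and sycp3 are of the kind named xhyb, and whether they read the named gene alone was not tested. Sox9, dmrt1 and gata4, also on the list of Sertoli markers, were not analysed here.

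Of the 59 genes 44 (74.6%) were well above background, meaning that the scanner software marked the probe so on 3 or more arrays within one group of 4, against 78.0% of all 32899 probes and 79.8% of all named genes. On all 8 arrays 36 genes were well above background, and 9 were so on none. All 5 pax genes, six3 and six4, dmrtb1, gata2 and irx1 passed, as did 12 of 15 hox, 3 of 4 lhx, 3 of 4 sox, 7 of 11 nkx, 6 of 10 fox and 3 of 5 tbx genes. The genes marked on no array were foxe3, foxo6, foxq1, hoxc3, hoxc5, hoxc11, lhx6, nkx1-1 and nkx2-2. For these the signal is only a bound, and their transcripts were not detectable at this brightness.

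The threshold of 3 arrays separated genes of similar dimness. Just inside it lay hoxa11, nkx2-3 and six3, each marked on 1 control and 3 finasteride arrays, with gata2 on 2 and 3 and lhx2 on 3 and 3. Just outside lay foxe1 and tbx18, marked on finasteride 2 and finasteride 3 only. Foxe1, a thyroid gene, ran from -6.48 to -5.76 on control arrays and from -6.73 to -4.80 on finasteride arrays, and tbx18 from -7.44 to -6.36 and from -6.87 to -5.70. Both pairs of ranges overlapped. Of the others below the threshold, nkx2-4, sox21 and tbx5 were marked on finasteride 3 alone, and nkx6-2 on control 4 and finasteride 3. Sox21, a neural gene, ran from -7.66 to -6.02 on control and from -6.74 to -6.13 on finasteride arrays. In all, 4 of the 44 genes (9.09%) passed through finasteride arrays alone and 0 through control arrays alone, where 5.65% of the probes tested passed through finasteride arrays alone. Between 39 and 44 of the 59 genes were marked per control array (41.25 ± 2.06, SD, n = 4), and between 36 and 50 per finasteride array (44 ± 5.89, SD, n = 4). The array with the most, finasteride 3, and the one with the fewest, finasteride 4, were also those with the highest and lowest share of all probes marked, 86.9% and 70.5%. The part of array brightness in these counts was not tested.

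**Figure D1:**
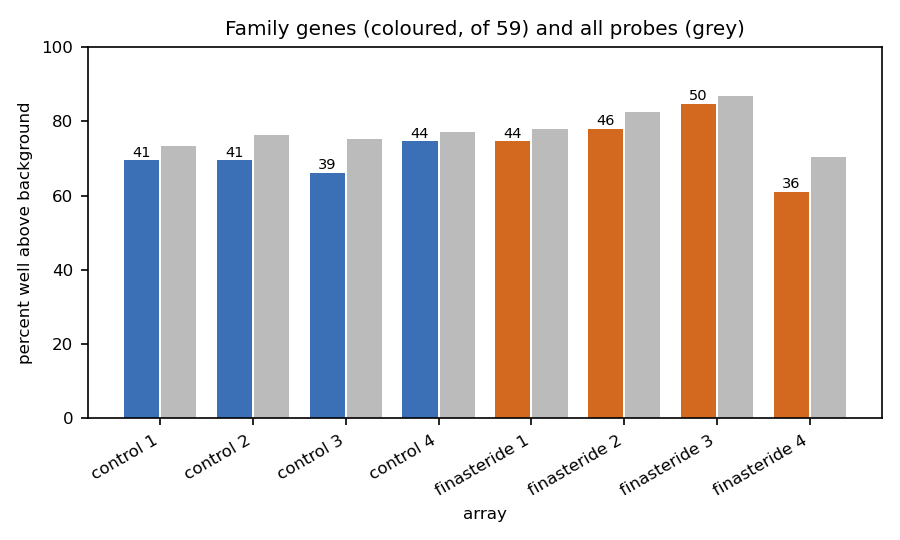
Percent of the 59 transcription factor genes (coloured bars, with the number of genes above each) and of all probes (grey bars) that were well above background on each of the 8 arrays. The family genes run from 61.0% on finasteride 4 to 84.7% on finasteride 3, the arrays where all probes are also lowest and highest, while the order of the control arrays differs between the family genes and all probes.

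The hox genes were read at several places in their 4 clusters. In cluster A hoxa6, hoxa11 and hoxa13 were well above background, in cluster B hoxb1, hoxb6, hoxb7 and hoxb8, and in cluster D hoxd3 and hoxd13, which is every gene of these clusters that had a named probe. Cluster C was mixed: hoxc4, hoxc12 and hoxc13 passed, and hoxc3, hoxc5 and hoxc11 did not. In the gene order of the RefSeq table hoxc3 and hoxc5 flank hoxc4, and hoxc11 lies beside hoxc12, so genes on both sides of the detection limit were direct neighbours. All 3 genes of paralog group 13, the end of the clusters used for the hind end of the body, the limb tips and the genital region in vertebrates, were well above background on 8 of 8 arrays.

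The gene hoxa13, known in mice for digits and the urogenital outlet, had a level of 3.93, 4.15, 3.78 and 4.04 on control arrays 1 to 4. On finasteride arrays 1 to 4 it stood at 3.51, 3.65, 3.46 and 2.94. All finasteride values lay below all control values, and finasteride 4 was the lowest. The processed intensity behind these levels was between 10987 and 26229 on control arrays and between 8562 and 22566 on finasteride arrays, so the groups overlapped before each array was scaled. The log2 fold change was -0.59 (95% interval -1.01 to -0.16, limma adjusted p = 1.00), a linear ratio of 0.666, and 4 of 4 finasteride arrays lay below the control mean. Hoxa13 was the only one of the 44 genes (2.27%) whose groups did not overlap, where 2.08% of all tested probes had this in either direction, 1.06% in the lower one and 1.02% in the higher one. The count is near the background. Within slide 1 the log2 fold change was -0.84 and within slide 2 -0.33. The probe, GT_EA519_mRNA_xhyb_003007, is of the kind named xhyb, and whether it reads hoxa13 alone was not tested. Of the 44 genes 16 were read from probes of this kind. Besides hoxa13 they were hoxb1, hoxb6, hoxd13, foxf1, foxr1, gata2, irx1, nkx1-2, nkx2-1, nkx2-6, pax1, pax3, pax8, six3 and sox2. Below the detection threshold foxe1, foxq1, hoxc3, nkx2-2, nkx6-2 and tbx5 were also read from such probes. Whether those probes read the named gene alone was not tested either, so their levels may not belong to that gene only.

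The other genes of paralog group 13 did not share that pattern. Hoxc13, known in mammals for hair and nails, stood at -2.92, -2.46, -2.70 and -2.95 on control arrays 1 to 4 and at -2.92, -2.73, -2.30 and -3.16 on finasteride arrays 1 to 4. Its groups overlapped, with a log2 fold change of -0.02 (-0.50 to 0.46). Hoxd13, a digit gene in mammals, stood at -3.14, -3.30, -3.35 and -3.24 on control arrays and at -2.72, -3.23, -2.65 and -3.13 on finasteride arrays. Finasteride 1, 3 and 4 lay above every control, finasteride 4 by only a narrow margin, and finasteride 2 lay among them, with a log2 fold change of 0.32 (-0.07 to 0.72). The cluster neighbour hoxa11, needed for the reproductive tract and limb in mice, had values of -6.62 to -5.38 on control arrays and -6.45 to -5.08 on finasteride arrays, a difference of 0.44 (-0.33 to 1.20). Its probe was well above background on only 1 control array against 3 finasteride arrays, so it was tested only through the group where it is higher. The limma adjusted p of every member rounded to 1.00, and the differences between these fold changes were not tested.

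**Figure D2:**
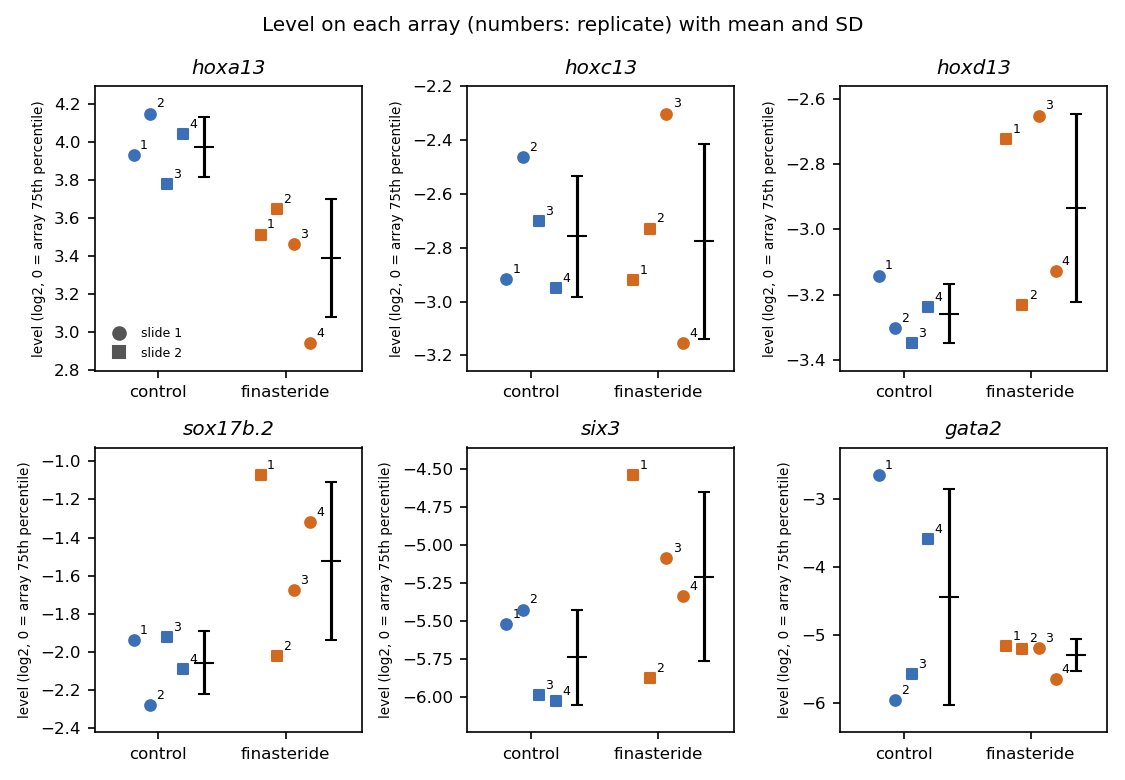
Level on each array of hoxa13, hoxc13, hoxd13, sox17b.2, six3 and gata2 (y axis: log2 processed intensity relative to the 75th percentile of the array), by group, with the replicate number beside each point, circles for slide 1, squares for slide 2, and the mean and SD beside each group. Only the panel of hoxa13 shows groups that do not overlap, with controls from 3.78 to 4.15 and finasteride arrays from 2.94 to 3.65.

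The question of the design was which transcripts differ after finasteride. Among the 44 genes 0 were higher and 0 lower at a limma adjusted p of 0.05, as among all 25652 probes tested (0% in each direction). At an unadjusted p under 0.05 there were 2 genes (4.55%), against 4.00% of probes. These were sox17b.2, with higher values (2.28% of probes in that direction), and hoxa13, with lower values (1.72%). Finasteride values were higher for 27 genes and lower for 17, with a median log2 fold change of 0.03, from -0.86 to 0.53, beside a median of 0.0063 over all probes, 51.2% of which were higher. With normexp background correction, which moved the median of all probes to 0.23, the split was 39 higher and 5 lower. The median of the genes was -0.0094 within slide 1 and 0.011 within slide 2, where 20 and 25 of the 44 were higher. Of the 44 genes 4 (9.09%) differed by at least 0.5 on the log2 scale, gata2, hoxa13, six3 and sox17b.2, against 7.89% of all probes. Of these, six3 and gata2 entered the test through finasteride arrays alone, which for six3 is the group with the higher values. The interval held 0 for 42 genes, and for 35 of 44 (79.5%, against 83.7% of probes) it lay within 2-fold in both directions. The median half-width of the interval, with 4 arrays per group, was 0.51 for these genes and 0.49 for all probes. Among the 44 genes it ran from 0.33 for dmrtb1 to 1.44 for gata2, so the size of difference that could be resolved varied by gene.

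**Figure D3:**
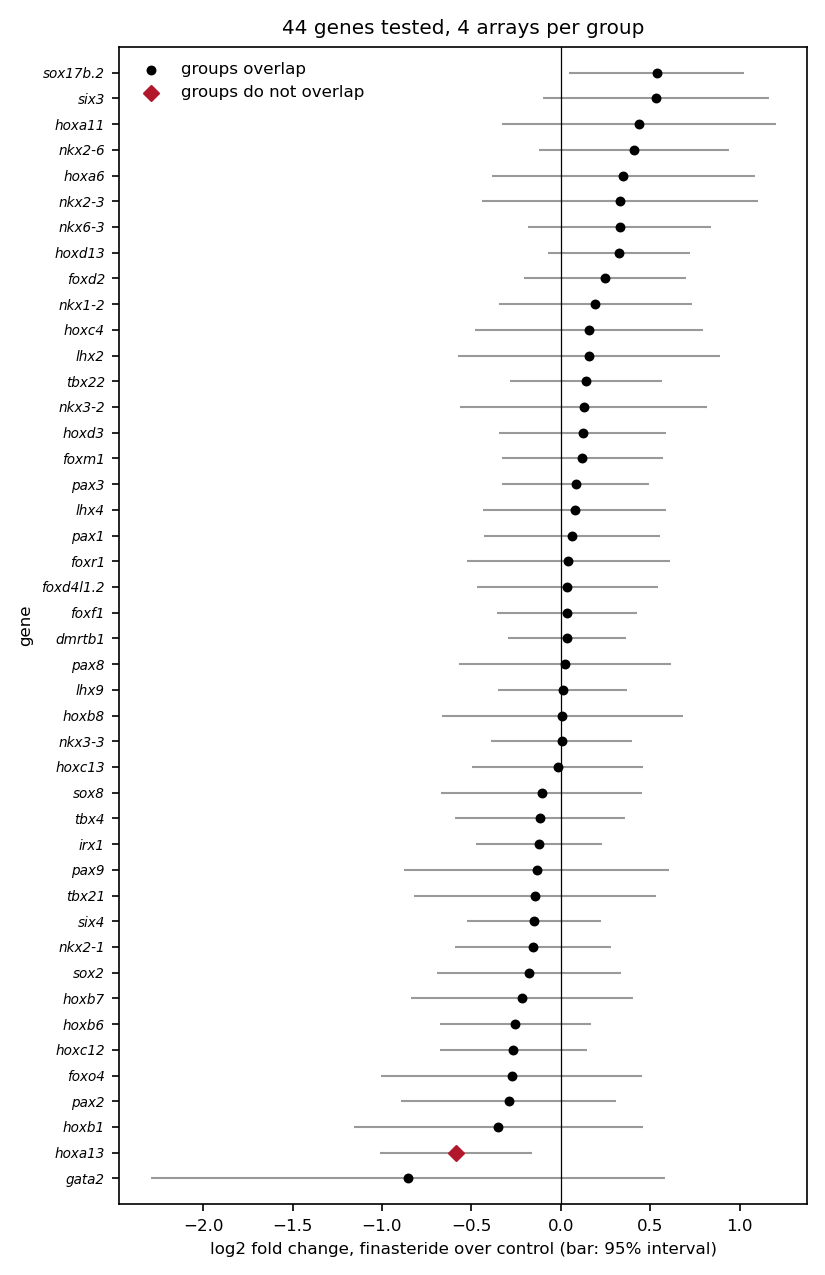
Log2 fold change, finasteride over control, of the 44 genes well above background, with 95% intervals from limma. The red diamond marks hoxa13, whose groups did not overlap, at -0.59. The values run from -0.86 for gata2 to 0.53 for sox17b.2, and 42 of the 44 intervals cross 0.

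Among the sox genes sox17b.2 had the widest difference. It is one of the tandem sox17 copies of Xenopus, known for endoderm formation in the embryo, and whether its probe also reads the neighbouring copies was not tested. Its level was -1.94, -2.28, -1.92 and -2.09 on control arrays 1 to 4 and -1.07, -2.02, -1.68 and -1.32 on finasteride arrays 1 to 4. Finasteride 1, 3 and 4 lay above every control, and finasteride 2 lay among them. The log2 fold change was 0.53 (0.04 to 1.03, adjusted p = 1.00), 0.61 within slide 1 and 0.46 within slide 2. It was higher than the control mean on 4 of 4 finasteride arrays. Sox2, a gene of stem cells and the nervous system, stood at 2.27 ± 0.23 on control and 2.09 ± 0.42 on finasteride arrays (SD, n = 4 each). The sox2 probe is of the xhyb kind, and whether it reads sox2 alone was not tested.

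The gata gene differed among the control arrays more than between the groups. Gata2, a factor of blood progenitors and endothelium, stood at -2.64 on control 1 and -3.59 on control 4, at -5.96 and -5.57 on control 2 and control 3, and between -5.64 and -5.15 on finasteride arrays. It was not well above background on control 2, control 3 and finasteride 4. Its log2 fold change of -0.86 (-2.29 to 0.58) was -0.26 without control 1 and -1.36 without control 2, and with normexp it turned to 0.70. The red cell anion exchanger gene slc4a1 stood at -0.75 on control 4 and -3.30 on control 1, against -4.94 and -4.50 on control 2 and control 3 and -4.67 to -3.53 on finasteride arrays. Of the 7 red cell markers listed 2 were tested, slc4a1 and epb41, and their summed signal, relative to the 75th percentile, ran from 0.0583 to 0.612 on control and from 0.0722 to 0.151 on finasteride arrays. The other red cell gene, epb41, stood between -5.91 and -5.27 on control arrays and between -4.93 and -3.79 on finasteride arrays, which do not overlap (2.08% of probes). It was well above background on 1 control and 4 finasteride arrays, and so was tested only through the group where it is higher. The epb41 probe is of the xhyb kind, and whether it reads epb41 alone was not tested. The part of red cells in the values of gata2 was not tested.

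Six3, a gene of the eye and forebrain, stood at -5.52, -5.43, -5.99 and -6.03 on control arrays 1 to 4 and at -4.54, -5.88, -5.09 and -5.34 on finasteride arrays 1 to 4. Finasteride 1, 3 and 4 lay above the controls, on a probe that was well above background on only 1 control array. The difference was 0.53 (-0.10 to 1.16), 0.26 within slide 1, 0.80 within slide 2 and 0.31 without finasteride 1. Six4, which acts in male sex determination in mice, stayed close over all arrays, from -3.38 to -2.85, with a difference of -0.15 (-0.53 to 0.22).

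Genes with a known place in the gonad were read from a list of 22, of which 6 had a named probe and all 6 were tested. Sox8, a partner of sox9 in mouse Sertoli cells, stood at 0.58, 0.86, 0.47 and 1.06 on control arrays and at 0.31, 0.79, 0.20 and 1.23 on finasteride arrays. The spread of its finasteride arrays enclosed all control values, and the difference was -0.11 (-0.67 to 0.46). Lhx9, required for gonad formation in mice, held a narrow range, from -3.77 to -3.27 on control and from -3.64 to -3.41 on finasteride arrays, with a difference of 0.01 (-0.35 to 0.37). Its relative lhx2 differed by 0.16 (-0.57 to 0.89), with values from -6.26 on control 3 to -4.47 on control 4. Pax2 and pax8, factors of kidney and genital ducts, differed by -0.29 (-0.89 to 0.31) and 0.02 (-0.57 to 0.62). Other kidney markers beside them were cdh16, at 2.47 ± 0.12 on control and 2.58 ± 0.57 on finasteride arrays, and the salt transporter slc12a3, at -1.17 ± 0.42 and -1.91 ± 0.44 (SD, n = 4 each), with groups that did not overlap (1.06% of probes in that direction). Of the 8 kidney markers listed 4 were tested, and their summed signal ran from 7.71 to 9.28 on control and from 7.95 to 12.5 on finasteride arrays. That sum includes pax2 and pax8 themselves, so it is no separate measure of kidney tissue beside them. Cdh16 had the highest signal of the 4 on every array, with a level of 3.36 on finasteride 1, so its probe weighs most in the sum. Cdh16 and pax8 were read from xhyb probes, and whether these read the named gene alone was not tested. The part of duct or kidney tissue in the values of pax2 and pax8 was not tested.

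Dmrtb1, which in mice acts as spermatogonia turn from mitosis to meiosis, had the narrowest range over the 8 arrays of the 44 genes tested, 0.35. It stood at 1.86, 1.79, 2.14 and 1.85 on control arrays and at 1.89, 1.98, 1.90 and 2.02 on finasteride arrays, a difference of 0.03 (-0.30 to 0.36). Its interval leaves room for a change of no more than 0.36 upward or 0.30 downward on the log2 scale at 95% confidence, on the model's assumptions.

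Of the 6 forkhead genes tested 5 had higher and 1 lower finasteride values, with a median difference of 0.04. Foxf1, a factor of gut and lung mesenchyme, stood at 5.49 ± 0.07 on control and 5.53 ± 0.29 on finasteride arrays, and foxm1, a driver of cell division genes, at -1.18 ± 0.27 and -1.06 ± 0.27 (SD, n = 4 each). The foxf1 probe is of the xhyb kind, and whether it reads foxf1 alone was not tested. Foxo4, a factor restrained by insulin signalling, stood between -3.79 and -2.93 on control arrays and at -3.89, -3.88, -2.52 and -3.72 on finasteride arrays 1 to 4. Finasteride 3 thus lay above all other arrays, while the rest of its group lay near or below the lowest control, and the difference was -0.28 (-1.01 to 0.46), or -0.60 without finasteride 3 and 0.43 with normexp. Foxd2 differed by 0.25 (-0.21 to 0.70). Foxr1 stood at 0.21 ± 0.19 on control and 0.25 ± 0.52 on finasteride arrays (SD, n = 4 each).

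Trunk and head hox genes gave differences of either sign. Of the 12 hox genes tested 6 were higher and 6 lower, with a median of -0.01. Hoxb1, a hindbrain gene, ranged most, from -1.58 on control 3 to -0.16 on control 4 and from -1.94 on finasteride 1 to -0.56 on finasteride 2, a difference of -0.35 (-1.16 to 0.46). Hoxb6 differed by -0.25 (-0.67 to 0.17), hoxc12 by -0.27 (-0.68 to 0.14) and hoxa6 by 0.35 (-0.39 to 1.08). Neighbouring hoxb7 and hoxb8 had their highest value on control 4 (-2.87 and -3.41) and their lowest on control 3 (-4.10 and -4.79). Control 4 also held the highest value of hoxb1, hoxc4 and hoxd3, which made 5 of the 12 hox genes. Over all 44 genes it held the highest value for 12 (27.3%), against 18.4% of probes.

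**Figure D4:**
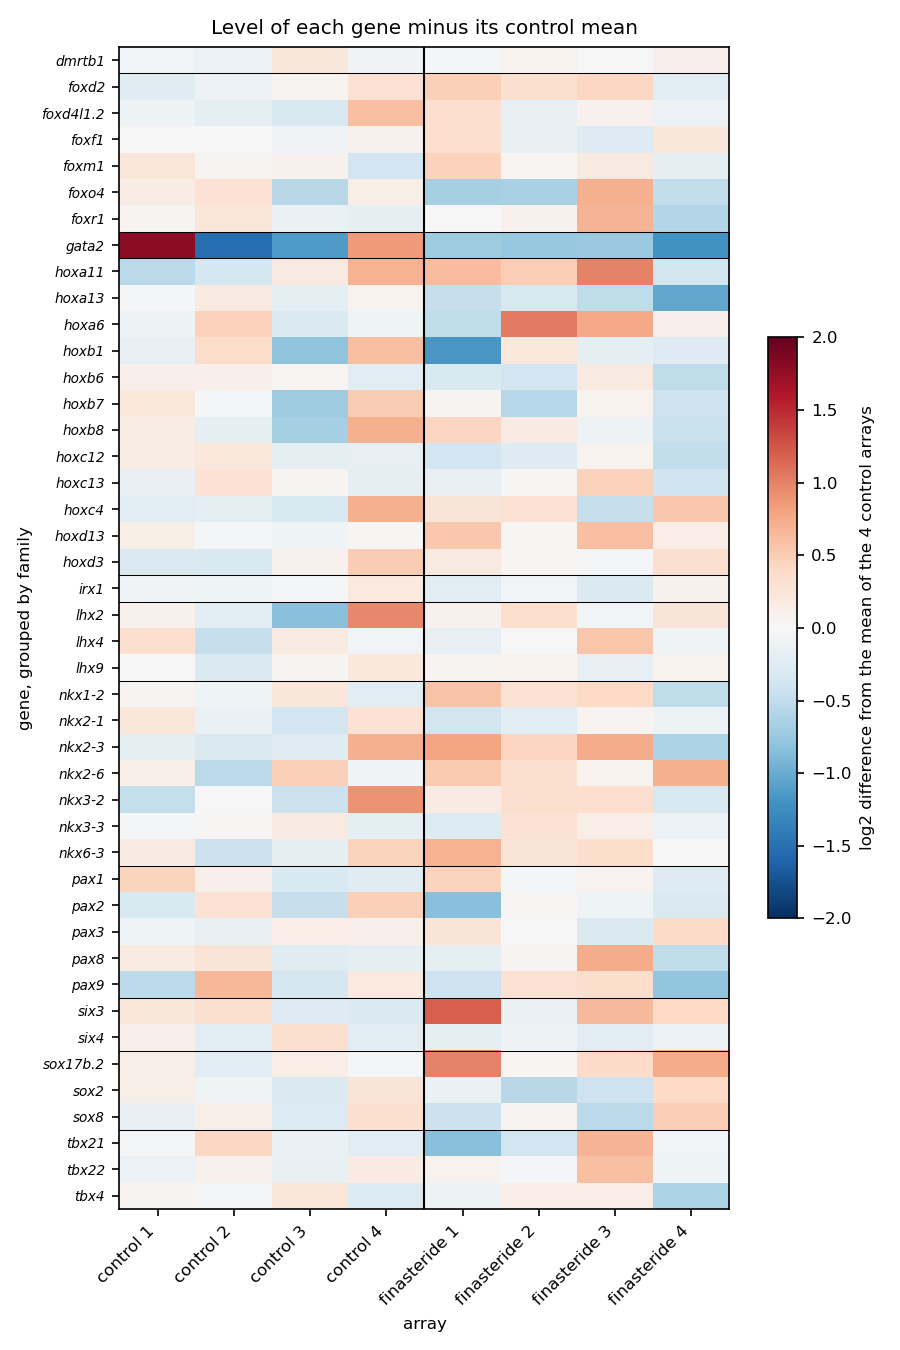
Level of each of the 44 genes on each array minus the mean of its 4 control arrays (colour, log2 scale; rows grouped by family, black line between control and finasteride arrays). Only hoxa13 is lower on every finasteride array than on every control array, gata2 separates control 1 and control 4 from the other arrays, and 5 hox genes are highest on control 4.

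Of the 7 nkx genes tested 6 had higher and 1 lower finasteride values, with a median of 0.19 and 0 past the threshold, where 51.2% of all probes had higher values. Among the higher genes, nkx2-3 was tested only through the finasteride arrays. Nkx2-6, a heart and pharynx gene, stood at -3.92, -4.57, -3.56 and -4.11 on control arrays and at -3.51, -3.72, -3.96 and -3.34 on finasteride arrays. Control 3 lay above finasteride 2 and finasteride 3, so the groups overlapped, and the difference was 0.41 (-0.12 to 0.94). Nkx6-3 differed by 0.33 (-0.18 to 0.84). Nkx2-3, a gene of gut and spleen mesenchyme, differed by 0.33 on a dim probe, with control values from -6.11 to -5.11 and finasteride values from -6.46 to -5.05. Nkx3-3 stood at 0.44 ± 0.15 and 0.45 ± 0.26 (SD, n = 4 each). Nkx6-2, below the detection threshold, had a single bright array, control 4 at -2.94, with the other arrays between -8.29 and -5.78.

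The pax and tbx genes completed the families. Pax1, known for vertebrae and pharyngeal pouches, stood at 4.89 ± 0.35 on control and 4.96 ± 0.29 on finasteride arrays, and pax3, a neural crest and muscle gene, at 0.67 ± 0.14 and 0.76 ± 0.30 (SD, n = 4 each). Both were read from xhyb probes, and whether these read the named gene alone was not tested. Pax9 had the widest range of its family, from -2.40 to -1.20 on control and from -2.66 to -1.52 on finasteride arrays. Tbx21, a regulator of T helper lymphocytes in mammals, ranged from 0.45 to 1.09 on control arrays and from -0.15 on finasteride 1 to 1.36 on finasteride 3. Of the 4 leukocyte markers listed, cd74 and mpo were tested, and their summed signal ran from 0.467 to 0.624 on control and from 0.375 to 0.939 on finasteride arrays. Cd74 was well above background on 1 control and 3 finasteride arrays, and so was tested only through the group where it is higher. The part of leukocytes in the values of tbx21 was not tested. Irx1 stood at -3.43 ± 0.13 on control and -3.55 ± 0.17 on finasteride arrays (SD, n = 4 each) and differed by -0.12 (-0.47 to 0.23). The remaining tested genes, foxd4l1.2, hoxc4, hoxd3, lhx4, nkx1-2, nkx2-1, nkx3-2, tbx4 and tbx22, lay between -0.16 for nkx2-1 and 0.19 for nkx1-2, all with overlapping groups.

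The median spread between arrays of these genes lay a little above that of all probes on control arrays and a little below it on finasteride arrays. The median SD over control arrays was 0.28 for the 44 genes and 0.23 for all probes tested, and over finasteride arrays it was 0.31 and 0.35. The SD was higher on finasteride than on control arrays for 26 of 44 genes (59.1%) and for 71.2% of all probes. No test of this difference was made. Of the 44 genes 24 had 2 spots on each array. The median SD between the spots of an array was 0.11 for these, against a median SD of 0.34 between arrays of a group, and the latter was larger for 23 of the 24. Hoxa11 was the exception, with 0.58 between spots and 0.57 between arrays.

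Genes that act with these factors, or belong to related families outside the rule, were read from 9 lists. Of 229 genes listed 64 had a named probe and 53 were tested. Finasteride values were higher for 34 and lower for 19, with a median log2 fold change of 0.03, and 0 passed the threshold. The groups did not overlap for 1 of them, rax2, a homeobox gene of the eye, which is near the 2.08% of all tested probes. It stood at -5.25, -5.18, -5.41 and -5.32 on control arrays and at -4.61, -4.99, -4.58 and -4.66 on finasteride arrays, a difference of 0.58 (0.23 to 0.93, limma adjusted p = 1.00). Of 23 other developmental factors tested 17 were higher and 6 lower, among them the hedgehog pathway factors gli1, with 0.36 (-0.12 to 0.83), and gli2, with -0.72 (-1.60 to 0.15) and its lowest value, -5.90, on finasteride 4.

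Of 5 Polycomb and Trithorax genes tested, which silence or maintain hox genes, 2 were higher and 3 lower. Pcgf6, a Polycomb subunit active in germ cells in mice, differed by 0.43 (0.01 to 0.85), ash2l, a subunit of histone methyltransferase complexes, by 0.30 (-0.12 to 0.71) and phc3 by -0.29 (-0.83 to 0.25). Of 6 retinoic acid genes 5 were higher, with the receptor rarg at 0.16 (-0.19 to 0.50), the synthesis enzyme aldh1a2 at 0.23 (-0.41 to 0.87) and the receptor rxrg at 0.12 (-0.29 to 0.52). Of 8 other gonad genes 6 were lower, with nr0b1, a nuclear receptor that represses steroid synthesis genes, at -0.31 (-0.73 to 0.12), cbx2 at -0.23 (-0.75 to 0.30) and fgf9 at -0.21 (-0.80 to 0.38).

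Direct partners were few. The GATA cofactors zfpm2 and zfpm1 differed by 0.23 (-0.28 to 0.75) and 0.02 (-0.33 to 0.37). The sine oculis partners eya4 and ski differed by -0.28 (-0.78 to 0.23) and 0.11 (-0.65 to 0.88), and the LIM factor partners ssbp4 and ldb2 by -0.45 (-1.25 to 0.35) and 0.13 (-0.59 to 0.85). The list made for the hox cofactors pbx and meis was left with tgif2, which is neither, at 0.02 (-0.80 to 0.84). Meis1 was well above background on no array, so no pbx or meis gene was tested. Of 5 corepressors 3 were higher and 2 lower, with sin3a at 0.16 (-0.16 to 0.48) and tle5 at 0.05 (-0.40 to 0.50). Among the partner genes named, ash2l, rarg, aldh1a2, cbx2, ski, ldb2, tgif2, meis1 and tle5 were read from xhyb probes. Whether these read the named gene alone was not tested.

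**Figure D5:**
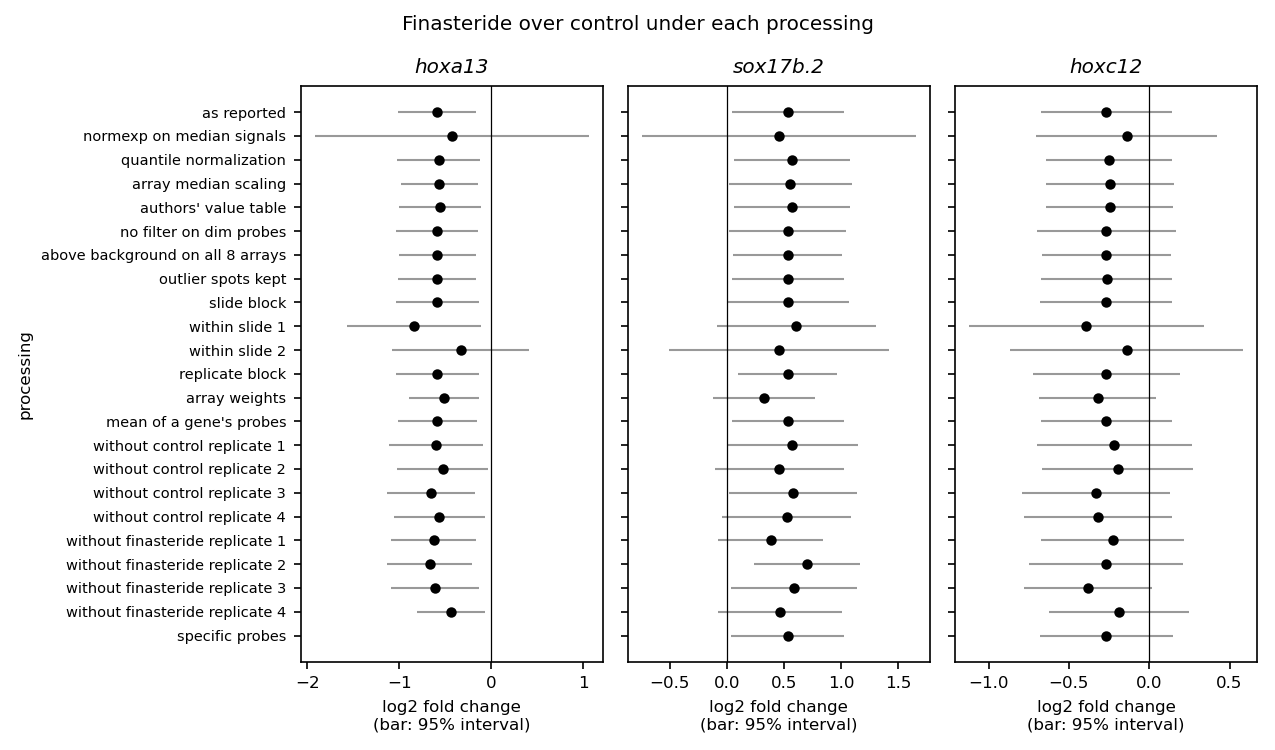
Log2 fold change, finasteride over control, with 95% intervals, of hoxa13, sox17b.2 and hoxc12 as reported and under each other processing (rows). The sign holds in every row shown, from -0.84 to -0.33 for hoxa13, from 0.33 to 0.70 for sox17b.2 and from -0.39 to -0.14 for hoxc12, and hoxa13, read from an xhyb probe, has no value under specific probes. The interval holds 0 in some rows, among them within slide 2 for hoxa13 (-1.08 to 0.42) and for sox17b.2 (-0.50 to 1.42). For hoxc12 it holds 0 as reported (-0.68 to 0.14). Hoxa13 and sox17b.2 had the lowest unadjusted p of the genes tested. The sign of other genes, among them gata2, foxo4, pax8 and lhx9, turned under some processing and is not shown.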

How the data were processed

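Spot intensity was deposited per array as Agilent Feature Extraction 10.7.1.1 output, per the file headers, which name the build JGI 4.1 and flags for outlier, saturated and well above background spots. The authors' deposited table holds log2 values, not centred by gene, with column medians from 7.356 to 7.370 and a Pearson correlation of 0.9976 or more with log2 processed intensity of the same array. Its lowest value, 2.12, and its highest, 18.86, were the same on every array, as quantile normalization would give. How it was normalized is otherwise unknown, and it served as an alternative. Outlier and control spots were left out, log2 processed intensity was averaged over the spots of a probe, at most 2 for the family genes, and the 75th percentile of the array was subtracted. A probe counted as well above background on an array when a share of 0.5 or more of its spots were flagged. The 25652 probes so flagged on at least 3 arrays of a group entered a linear model with empirical Bayes moderation (limma 3.58.1, R 4.3.3), with no term but treatment, two-sided p-values, Benjamini-Hochberg adjustment over all of them and a threshold of 0.05. The steps were tested on simulated data with changes larger than any difference of the family genes, so that test does not cover differences of their size. The number of arrays limits the precision. Slide 1 and slide 2 each held 2 arrays of each group, and controls lay at positions 1 and 3 and finasteride arrays at 2 and 4 of each, which cannot be told apart from treatment. Probes were named through RefSeq transcripts of UCB_Xtro_10.0 without version numbers (5891 matched), and the build differs from that of the arrays, so no coordinates are given. For a gene with several probes, the probe of highest mean was used. Members named with a test were those past the threshold, those with groups that do not overlap, the 8 with the lowest p in each direction and a gonad list, and for each family the probes with the highest mean and the widest range were given as levels. Any other member or marker printed with values was chosen after its values were seen. From each partner list up to 3 genes with the lowest p were named, except 1 that is not reported here. Members and lists were chosen with earlier results of these data known. The alternatives changed background correction, scaling, the filter, the slide or replicate block, array weights or the probes, or left out each array.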

Additional observations from a re-analysis of the deposited data

Results flagged for a closer look

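In 118 groups of 4 values, 2 for each of the 59 genes, 6 held an array far from the others of its group, where chance alone gives about 1 in 20 groups (5.9 here). Foxo4 stood at -2.52 on finasteride 3, with the other finasteride arrays between -3.89 and -3.72. Gata2 stood at -5.64 on finasteride 4, against -5.19 to -5.15, and lhx9 at -3.64 on finasteride 3, against -3.42 to -3.41. Hoxc4 stood at -1.25 on control 4, against -2.27 to -2.15, and nkx2-3 at -5.11 on control 4, against -6.11 to -6.02. Nkx2-3 was not well above background on control 1, control 2 and control 3, nor gata2 on finasteride 4, so those values are only bounds. Hoxc11, which was well above background on no array, stood at -8.34 on finasteride 2, against -7.29 to -7.18.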

How the results depend on the processing

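Over 22 alternatives 0 family genes passed the threshold in either direction. Probe counts, 0 higher and 0 lower, became 1 higher when slide 2 was fitted alone. Leaving out each array gave 0 to 2 higher and 0 to 6 lower (1 and 6 without control 3, 0 and 2 without finasteride 1, 2 and 0 without finasteride 2, 1 and 1 without finasteride 4). With normexp on median signals (the files hold no mean signal) the median of all probes moved to 0.23. The median of the family genes was then 0.48 (39 of 44 higher). List medians were 0.18 for corepressors, 0.47 for GATA cofactors, 0.88 for the hox cofactor list (tgif2 alone) and 0.83 for LIM partners. They were 0.80 for other developmental factors, 0.51 for retinoic acid and 0.50 for sine oculis partners. The sign turned there for foxo4 (0.43), gata2 (0.70), hoxb1 (0.069), hoxb6 (0.25), pax2 (0.44) and six4 (0.48); the cause was not tested. Values near 0 also turned: pax8 to -0.099 within slide 1 and -0.025 with array weights, and lhx9 to -0.071 within slide 2. With 1 array left out pax8 ran from -0.21 to 0.20, lhx9 from -0.085 to 0.081, lhx2 from -0.12 to 0.48, sox8 from -0.30 to 0.038, and the corepressor median from 6e-04 to 0.14 (0.090 within slide 2). The medians of 7 other lists turned in sign: Polycomb and Trithorax from -0.24 to 0.21, hox cofactors from -0.34 to 0.28, LIM partners from -0.36 to 0.054, other gonad genes from -0.17 to 0.0022, retinoic acid from -0.021 to 0.13, other developmental factors from -0.0066 to 0.18 and sine oculis partners from -0.17 to 0.014. The family median ran from -0.0091 without control 3 to 0.069 without finasteride 4. Restricted to probes named specific, 28 genes were well above background, because 16 of the 44 were read from xhyb probes. Of all 59 genes 39 were so on all 4 arrays of a group, 36 on all 8 arrays and 50 on 1 array or more, and 43 when every spot had to be flagged, a rule chosen after seeing the data. In the fit with a replicate block 0 probes and 0 family genes passed, and hoxa13 had an adjusted p of 0.920; in this balanced design the block leaves every fold change as it is. The correlation between control and finasteride arrays of one number was 0.30, 0.36, -0.06 and -0.03 for numbers 1 to 4, and only 1 and 2 correlated best with their own number, so no pairing was assumed. Over all alternatives hoxa13 had an adjusted p from 0.554 to 1.00.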

Other observations

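Related homeobox genes outside the families also lay below the detection threshold. Barx2, noticed after its values were seen, stood at -7.07, -8.05, -7.02 and -7.51 on control arrays and at -5.75, -6.06, -5.38 and -6.72 on finasteride arrays, and was well above background on 0 control and 2 finasteride arrays. It was not tested, and no fold is given for a probe this dim. Dlx4 was likewise marked on 0 control and 2 finasteride arrays, while barx1, gbx2.1, lmx1a, msx2 and prrx1 were marked on none.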
